A study of Mus musculus with 6 samples.

Results

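The tripartite motif (TRIM) family was examined in the ventral lumbar spinal cord of SOD1G93A mice, as every row of the deposited gene table whose symbol is Trim, a number and an optional letter, with a mean of at least 10 normalized counts over the 6 libraries. Of 28162 genes in the table, 64 carried such a symbol and 48 reached that mean. The tested mice had received an intrathecal adeno-associated virus carrying neuron-derived neurotrophic factor (AAV-NDNF, 3 libraries), and the controls the same kind of virus carrying green fluorescent protein (AAV-GFP, 3 libraries). The mice of all 6 libraries carried the SOD1G93A transgene, so controls had the disease model as well. This transgene encodes a mutant human superoxide dismutase that causes motor neuron degeneration. Injection was at postnatal day 74 and sampling at day 104. The sources used here do not state the serotype and promoter of the vectors, and wild-type mice were not analysed here. The labels call the libraries biological replicates.

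TRIM proteins share a RING finger, B-boxes and a coiled coil, and most of them are E3 ubiquitin ligases. The family spans unrelated jobs, from restriction of viruses and tuning of innate immune sensing to chromatin silencing, microtubule binding and axon biology in neurons. A subset is induced by interferon: signalling from the interferon receptor acts on the interferon-stimulated response element, which holds repeated GAAA letters. In the nervous system, interferon-stimulated genes are known from microglia and other cells that respond to viral infection or to nucleic acid sensing.

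Mouse TRIM genes known to be induced by interferon were taken as a list of 13, of which 10 were members: Trim12a, Trim12c, Trim14, Trim21, Trim25, Trim26, Trim30a, Trim30d, Trim34a and Trim56. Trim30b, Trim30c and Trim34b of that list lay under the mean of 10. Trim38 and Trim69, whose induction is known from human cells, were also under it. Several listed members are close neighbours: 10 TRIM genes, 7 of them members, lie on chromosome 7 between 104218793 and 104507849 (mm10, GENCODE M21), and Trim21 and Trim68 lie between 102557921 and 102687327 on the same chromosome.

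Promoter sequences were compared because the listed members are defined by a shared inducer, which the choice by symbol and level did not use. RefSeq promoters (GRCm38.p6, 250 bases before to 50 bases after the start) were matched for 37 of the 48 members. They were searched on both strands for the core letters of the response element, GAAA and a second GAAA with 2 bases of any kind (NN) between them, which reads TTTC, NN, TTTC on the other strand; matches may overlap. The letters were present in 7 of 9 matched listed members (77.8%), namely Trim12a, Trim12c, Trim21, Trim26, Trim30a, Trim30d and Trim34a. They were present in 2 of 28 other members (7.14%), Trim2 and Trim5. Of all 16057 table genes with a promoter, 3.77% held them, and of 14 matched promoters among 22 other interferon-stimulated genes, 9 did (64.3%). The windows of Trim25 and Trim56 did not hold these letters. For Trim12a and Trim5, the bases just after the RefSeq start were not found in a GENCODE M21 transcript of the gene. A match is a description of the letters and not a measured binding site.

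The promoters of the 5 listed members that held the letters and were lower at an unadjusted p under 0.05 in the comparison of the groups are shown 5′ to 3′ in the direction of transcription, with the matched letters in capitals. They are Trim30a at chr7:104465144-104465443 (minus strand), Trim30d at chr7:104507800-104508099 (minus), Trim12c at chr7:104353300-104353599 (minus), Trim34a at chr7:104244207-104244506 (plus) and Trim21 at chr7:102565433-102565732 (minus).
Trim30a: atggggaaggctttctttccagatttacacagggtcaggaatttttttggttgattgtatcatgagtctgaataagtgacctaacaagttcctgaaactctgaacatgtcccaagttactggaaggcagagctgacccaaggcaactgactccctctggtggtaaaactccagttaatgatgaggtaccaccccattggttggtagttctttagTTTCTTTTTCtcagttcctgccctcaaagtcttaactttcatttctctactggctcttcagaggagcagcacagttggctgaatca
Trim30d: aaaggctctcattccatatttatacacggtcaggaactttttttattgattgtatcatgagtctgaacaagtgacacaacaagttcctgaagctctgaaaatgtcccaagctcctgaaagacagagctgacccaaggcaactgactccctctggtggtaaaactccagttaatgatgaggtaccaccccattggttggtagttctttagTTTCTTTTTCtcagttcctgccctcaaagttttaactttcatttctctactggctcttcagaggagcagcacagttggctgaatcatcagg
Trim12c: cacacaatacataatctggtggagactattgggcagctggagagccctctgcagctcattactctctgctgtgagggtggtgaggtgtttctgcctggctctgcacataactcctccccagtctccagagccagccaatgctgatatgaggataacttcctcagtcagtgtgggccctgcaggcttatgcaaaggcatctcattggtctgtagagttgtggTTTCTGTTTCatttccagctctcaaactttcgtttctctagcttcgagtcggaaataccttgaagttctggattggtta
Trim34a: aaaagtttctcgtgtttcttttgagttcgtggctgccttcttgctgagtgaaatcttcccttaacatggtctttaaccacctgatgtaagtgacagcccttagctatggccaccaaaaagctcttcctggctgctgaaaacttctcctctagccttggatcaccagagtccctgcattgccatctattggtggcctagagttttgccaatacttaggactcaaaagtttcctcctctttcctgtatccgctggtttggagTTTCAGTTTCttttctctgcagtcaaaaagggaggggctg
Trim21: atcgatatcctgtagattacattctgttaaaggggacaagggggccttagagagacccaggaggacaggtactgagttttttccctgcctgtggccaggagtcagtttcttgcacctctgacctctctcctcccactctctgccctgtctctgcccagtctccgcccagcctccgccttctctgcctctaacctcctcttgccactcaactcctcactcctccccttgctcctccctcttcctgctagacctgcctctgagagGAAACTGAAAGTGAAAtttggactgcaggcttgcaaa

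The match begins 36 bases before the start in Trim30a, 41 before it in Trim30d and 29 before it in Trim12c. RefSeq gives a second Trim30a start, whose window (chr7:104446076-104446375, minus strand, not printed) holds a match that begins 2 bases after it. The bases just after that second start were not found in a GENCODE M21 transcript of Trim30a. In Trim34a the match begins 10 bases after the start. Trim21 has 2 overlapping matches, which begin 13 and 19 bases after the start and form a triple repeat of GAAA. The windows of Trim30a and Trim30d share an unbroken run of 118 identical bases that holds the match, so these promoters are not independent examples. Trim12a and Trim5 likewise share a run of 241 bases that holds it, although Trim5 was not on the inducible list. The longest run shared by the listed members Trim12a and Trim12c was 71 bases and did not hold the match. The bases directly on either side of the match were nevertheless the same in Trim12a and Trim12c, so these promoters are not independent examples either.

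The libraries held between 15335789 and 20060987 recovered reads, and the 48 members took 0.206% to 0.236% of them after AAV-NDNF and 0.227% to 0.228% after AAV-GFP. Ndnf itself had 5286, 7077 and 674 normalized counts after AAV-NDNF, against 171, 128 and 158 after AAV-GFP, so AAV-NDNF replicate 3 held much less Ndnf transcript than the other two. Neuron, motor neuron, oligodendrocyte, astrocyte and microglia markers were detected in every library, and skeletal muscle markers summed to at most 44.9 normalized counts. AAV-GFP replicate 2 stood apart from the other controls: its dorsal horn neuron markers had the lowest sum of the 6 libraries (4294) and its oligodendrocyte markers the highest (712687). In bulk tissue, fewer cells of a type and less RNA per cell cannot be told apart.

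Among the 48 members, levels per exon length ran over a wide range, and the highest were not interferon genes. Trim37, an E3 ligase that limits centrosome assembly, had 852, 844 and 763 normalized counts per kb of exon after AAV-NDNF, and 731, 705 and 756 after AAV-GFP. Trim44, a family member that lacks a RING finger, had 801, 727 and 638 per kb after AAV-NDNF, and 761, 715 and 739 after AAV-GFP. Trim32, an NHL-repeat ligase that promotes neuronal differentiation in mice, had 606, 635 and 633 per kb after AAV-NDNF, and 619, 538 and 614 after AAV-GFP. The listed inducible members lay lower, with means over the 6 libraries from 104 per kb for Trim26 down to 10.7 per kb for Trim14. The lowest members per exon length were Trim71 at 1.18 and Trim6 at 2.16 per kb.

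**Figure D1:**
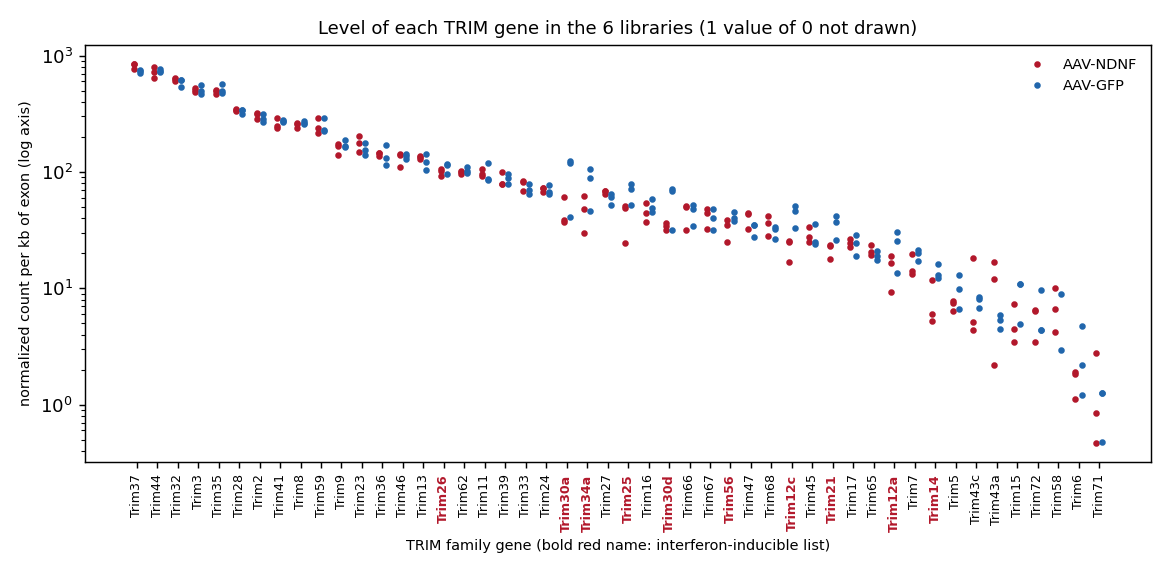
Level of each TRIM member, in normalized counts per kb of exon on a log axis; points stand for libraries, AAV-NDNF left of AAV-GFP, and the 0 of Trim58 in an AAV-GFP library is not drawn. Trim37, Trim44 and Trim32 are the highest, and the interferon-inducible members lie between 10.7 (Trim14) and 104 (Trim26) as means over the 6 libraries.

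Across the family, 47 of the 48 members reached 10 normalized counts in 3 or more libraries and were tested with limma on log2(normalized count + 1). None passed an adjusted p of 0.05, against 0.0% of the 17480 genes tested in either direction. All fold changes below are log2 differences of AAV-NDNF minus AAV-GFP on that scale. At an unadjusted p under 0.05, 7 members were lower after AAV-NDNF, against 3.53% of all genes tested, and 0 were higher, against 1.15%. All 7 were on the inducible list: Trim12c, Trim14, Trim21, Trim25, Trim30a, Trim30d and Trim34a. The 10 listed members had log2 differences from -0.95 to -0.11 with a median of -0.71, and the 37 others a median of 0.02. The median over all genes tested was 0.00. edgeR's quasi-likelihood test on recovered reads called 0 genes (808 at an unadjusted p under 0.05), limma called 0 (818), and DESeq2 called 55 (774), of which 0 were TRIM members. In the authors' deposited table the adjusted p was under 0.05 for 0.246% of genes in the lower and 0.0197% in the higher direction. At an unadjusted p under 0.05, the authors' deposited table had the same 7 members lower, against 2.2% of its genes. The smallest adjusted p of a member in the authors' deposited table was 0.145 for Trim12c, followed by 0.214 for Trim30a.

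**Figure D2:**
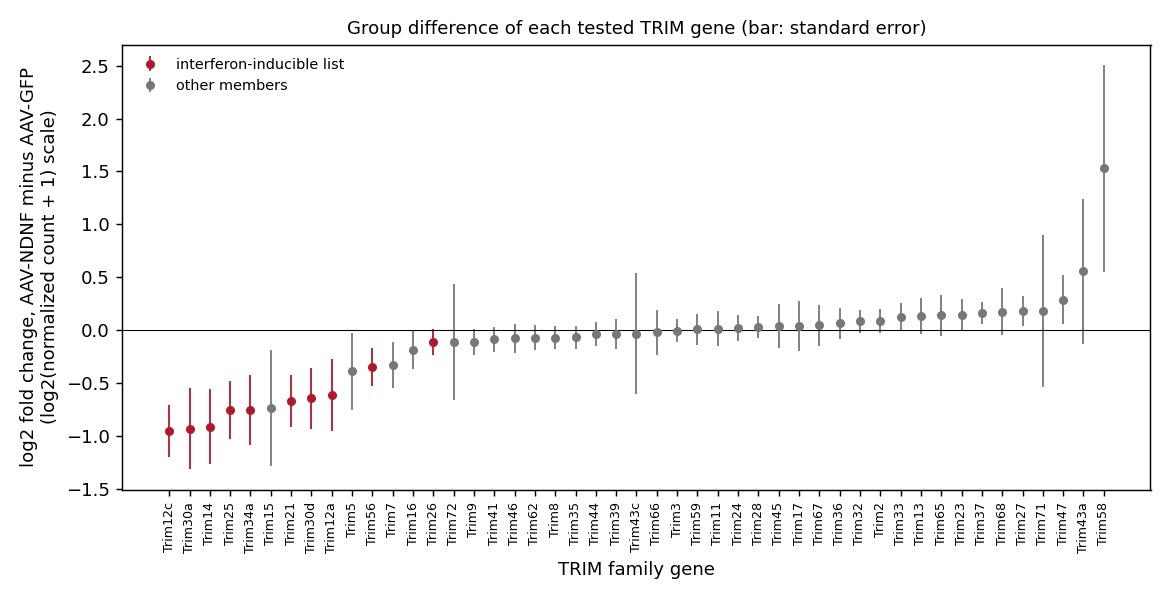
Log2 difference (AAV-NDNF minus AAV-GFP) of each of the 47 tested TRIM members, with its standard error. The 10 interferon-inducible members lie between -0.95 and -0.11; the 37 others lie on both sides of 0, 21 above and 16 below, and Trim58 at 1.53 has a control library at 0.

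Trim12a, Trim12c and Trim30a belong to the mouse gene group related to human TRIM5, a factor that recognises incoming retroviral capsids. Trim12c had 92.5, 94.6 and 62.4 normalized counts after AAV-NDNF, against 189, 123 and 173 after AAV-GFP. The groups did not overlap, and the highest AAV-NDNF library lay below AAV-GFP replicate 2, the lowest control. Its mean was 83.2 ± 18.0 after AAV-NDNF and 162 ± 34.5 after AAV-GFP (SD, n = 3 each). The log2 difference was -0.95 (SE 0.25; limma unadjusted p 0.0027, adjusted p 0.53).

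Trim12a, in the same cluster as Trim12c, had 108, 95.7 and 53.7 normalized counts after AAV-NDNF, against 175, 78.2 and 147 after AAV-GFP. AAV-GFP replicate 2 lay inside the AAV-NDNF range, so the groups overlapped, and the log2 difference was -0.61 (SE 0.34; limma unadjusted p 0.10). Trim5, also in the cluster and not on the list, had 27.8, 23.7 and 28.5 after AAV-NDNF, and 36.6, 24.4 and 48.1 after AAV-GFP. Its groups overlapped in the same way, with a log2 difference of -0.39 (SE 0.36; limma unadjusted p 0.31). The longest transcripts of Trim12c and Trim5 were 94.3% identical over 3710 bases, and those of Trim12a and Trim12c 96.0% over 967 bases, so the split of reads among these 3 genes is uncertain.

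Trim30a, which restrains Toll-like receptor signalling to NF-kB in mouse macrophages, showed the widest spread among controls of the listed members. It had 158, 248 and 152 normalized counts after AAV-NDNF, against 505, 169 and 486 after AAV-GFP. Among controls, replicates 1 and 3 were high and replicate 2 was low, and replicate 2 lay inside the AAV-NDNF range. The log2 difference was -0.93 (SE 0.38; limma unadjusted p 0.036, adjusted p 0.997). Trim30d, a tandem copy in the same cluster, had 137, 119 and 129 after AAV-NDNF, against 268, 118 and 256 after AAV-GFP. The 3 AAV-NDNF libraries lay close together, and AAV-GFP replicate 2 lay just below all of them (log2 difference -0.64, SE 0.28; limma unadjusted p 0.045). Longest transcripts of Trim30a and Trim30d were 83.0% identical over 1998 bases.

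Trim34a, a relative of human TRIM34, had 125, 161 and 77.8 normalized counts after AAV-NDNF, against 274, 119 and 231 after AAV-GFP. Among controls, replicate 2 once more had a value between those of AAV-NDNF libraries, and the others lay above them (log2 difference -0.75, SE 0.33; limma unadjusted p 0.045). Reads of Trim34a could be shared with Trim34b, 98.7% identical over 1827 bases, and with a gene model on the opposite strand, since the sources used here do not state whether counting used strand. Summing all 10 TRIM genes of the cluster, which does not depend on how counted reads were split among them, gave 662, 752 and 512 normalized counts after AAV-NDNF. Any reads left uncounted because they matched several genes would be missing from this sum as well. The same sum was 1501, 645 and 1378 after AAV-GFP, so replicate 2 had less than the other controls by this measure too and lay within the AAV-NDNF range.

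Trim25, Trim14 and Trim56, listed members that act on nucleic acid sensing, lie on other chromosomes. Trim25, the ligase that ubiquitinates the RNA sensor RIG-I, had 282, 294 and 140.2 normalized counts after AAV-NDNF, against 412, 298 and 455 after AAV-GFP. The groups did not overlap, but AAV-NDNF replicate 2 and AAV-GFP replicate 2 were nearly equal (log2 difference -0.75, SE 0.27; limma unadjusted p 0.018, adjusted p 0.92). Trim14, an adaptor of mitochondrial antiviral signalling without a RING finger, had 22.7, 25.9 and 51.5 after AAV-NDNF, against 53.6, 56.7 and 69.4 after AAV-GFP. AAV-NDNF replicate 3 lay close to the lowest control and the other AAV-NDNF libraries well below it, with a log2 difference of -0.91 (SE 0.36; limma unadjusted p 0.026, adjusted p 0.99). Exons of Trim14 overlap those of Nans on the opposite strand. Trim56, which promotes signalling by the DNA-sensing adaptor STING, had 324, 356 and 231 after AAV-NDNF, and 371, 353 and 419 after AAV-GFP. Its groups overlapped narrowly, with a log2 difference of -0.35 (SE 0.18; limma unadjusted p 0.077).

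Trim21, the cytosolic antibody receptor, had 85.8, 87.8 and 66.8 normalized counts after AAV-NDNF, against 155, 96.7 and 137 after AAV-GFP. The groups did not overlap, and AAV-GFP replicate 2 was the control nearest to the AAV-NDNF libraries (log2 difference -0.67, SE 0.24; limma unadjusted p 0.019, adjusted p 0.94). Trim26, a ligase that degrades nuclear IRF3, had 632, 725 and 701 after AAV-NDNF, and 798, 653 and 780 after AAV-GFP. It was the listed member with the smallest difference, and its groups overlapped (log2 difference -0.11, SE 0.13; limma unadjusted p 0.39). With 3 libraries a group, the exact two-sided permutation test cannot give a p below 0.1, and it gave that smallest p for Trim12c, Trim14, Trim21 and Trim25, the 4 members with every AAV-NDNF library below every AAV-GFP library, and for Trim37 in the other direction. Among all genes tested, 5.5% had every AAV-NDNF library below.

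**Figure D3:**
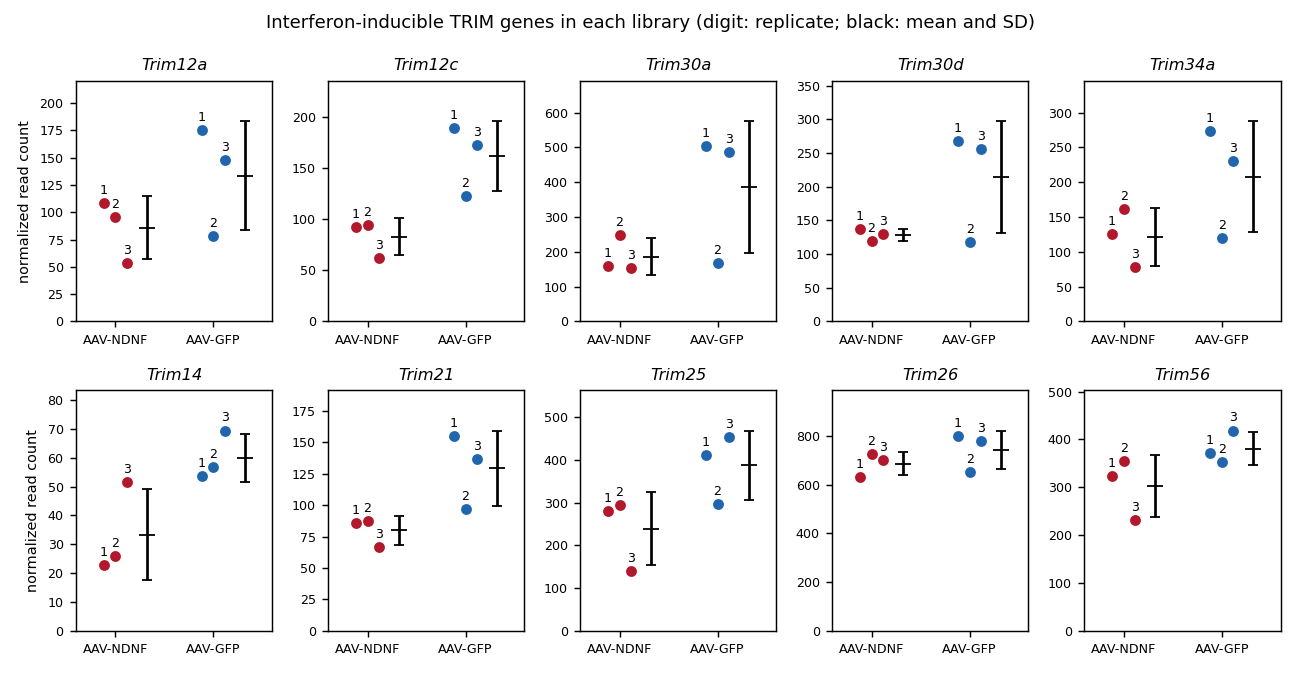
Normalized counts of the 10 interferon-inducible TRIM members by library, AAV-NDNF left of AAV-GFP; points stand for libraries and are numbered by replicate, with the mean and SD beside them. AAV-GFP replicate 2 is the lowest control in every panel except Trim14 and lies near the AAV-NDNF libraries for Trim30a (169, against 505 and 486 in the other controls), Trim30d, Trim34a and Trim12a. It is also within the AAV-NDNF range for Trim26 and Trim56, and just above that range for Trim25.

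The listed genes too low to be members gave few reads. Trim30b had 1.68, 1.13 and 1.10 normalized counts after AAV-NDNF, against 8.93, 5.86 and 22.4 after AAV-GFP, and is the gene just under the mean of 10 after Trim29. Trim29 had 10.9, 15.8 and 9.86 after AAV-NDNF, and 4.46, 6.84 and 1.07 after AAV-GFP. At the other side of the floor stood Trim6, with 9.25, 9.01 and 5.48 after AAV-NDNF and 23.2, 5.86 and 10.7 after AAV-GFP. Trim71 had 26.1, 7.88 and 4.38 after AAV-NDNF, and 4.46, 11.7 and 11.7 after AAV-GFP. These values sit near the floor of the choice and were read no further. Trim6 was the member that could not be tested.

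AAV-GFP replicate 2 was low among controls for most of the listed members. It was the lowest control for 9 of 10 listed members, the exception being Trim14, and for 15 of 37 others, against 39.8% of all genes tested. It was nearer the AAV-NDNF mean than the mean of the other controls on the log2 scale for 7 of 10 listed members and 21 of 37 others, against 49.7% of all genes. It lay within the AAV-NDNF range for 5 of 10 listed members, near the share of all genes tested (48.4%). It lay above that range for 4 listed members, against 4623 of 17480 genes tested, and below it for Trim30d, against 4399. Its log2 difference from the mean of the other controls was -1.55 for Trim30a, -1.14 for Trim30d, -1.07 for Trim34a and -1.03 for Trim12a. For these 4 genes the AAV-NDNF mean differed from those controls by -1.44, -1.02, -1.11 and -0.96, so that replicate 2 and the AAV-NDNF group were set off alike. For Trim12c, Trim25, Trim21 and Trim14, replicate 2 differed by -0.55, -0.54, -0.59 and -0.10, against -1.14, -0.93, -0.86 and -0.94 for the AAV-NDNF mean. The median difference of replicate 2 over the 10 listed members was -0.57, and over 17 other members of the same range of mean level 0.06.

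Spread between replicates was compared with the other members inside the listed members' range of mean level. Listed means ran from 46.6 to 715 normalized counts and those of the 17 others from 90.8 to 694. Levels were not matched within that range. The listed members' median coefficient of variation was 25.2% after AAV-NDNF and 22.2% after AAV-GFP. That of the 17 others was 13.2% after AAV-NDNF and 13.5% after AAV-GFP. After AAV-NDNF, replicate 3 was the lowest library for 7 of 10 listed members and for 21 of 37 others, against 39.8% of all genes.

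Fitting without AAV-GFP replicate 2 called 43 genes, all lower after AAV-NDNF (0.246% of those tested). Trim30a was the TRIM member among them, at a log2 difference of -1.44 (limma adjusted p 0.034; 0.034 to 0.9998 over all alternatives tried). Trim30d then stood at -1.02 (limma adjusted p 0.085) and Trim12c at -1.14 (limma adjusted p 0.22). In that fit 8 members were lower at an unadjusted p under 0.05, Trim12a in addition to the earlier 7, against 3.38% of all genes, and 0 were higher, against 1.32%. With another library left out, the count of lower members was 4 without AAV-NDNF replicate 1 (5.55% of all genes), 6 without AAV-NDNF replicate 2 (2.56%) and 3 without AAV-NDNF replicate 3 (4.45%). It was 2 without AAV-GFP replicate 1 (2.19% of all genes) and 1 without AAV-GFP replicate 3 (2.35%). Trim12c was counted in each of those fits. Without AAV-NDNF replicate 3, the log2 difference was -0.41 for Trim25, -0.46 for Trim34a, -0.31 for Trim12a and -0.16 for Trim56. Trim12a stood at -0.96 without AAV-GFP replicate 2 and -0.38 without AAV-GFP replicate 1. Trim26 stood at -0.05 with AAV-NDNF replicate 1 left out, and at -0.06 and -0.20 with AAV-GFP replicate 1 or 2 left out. All 10 listed members had a log2 difference below 0 in every alternative tried.

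**Figure D4:**
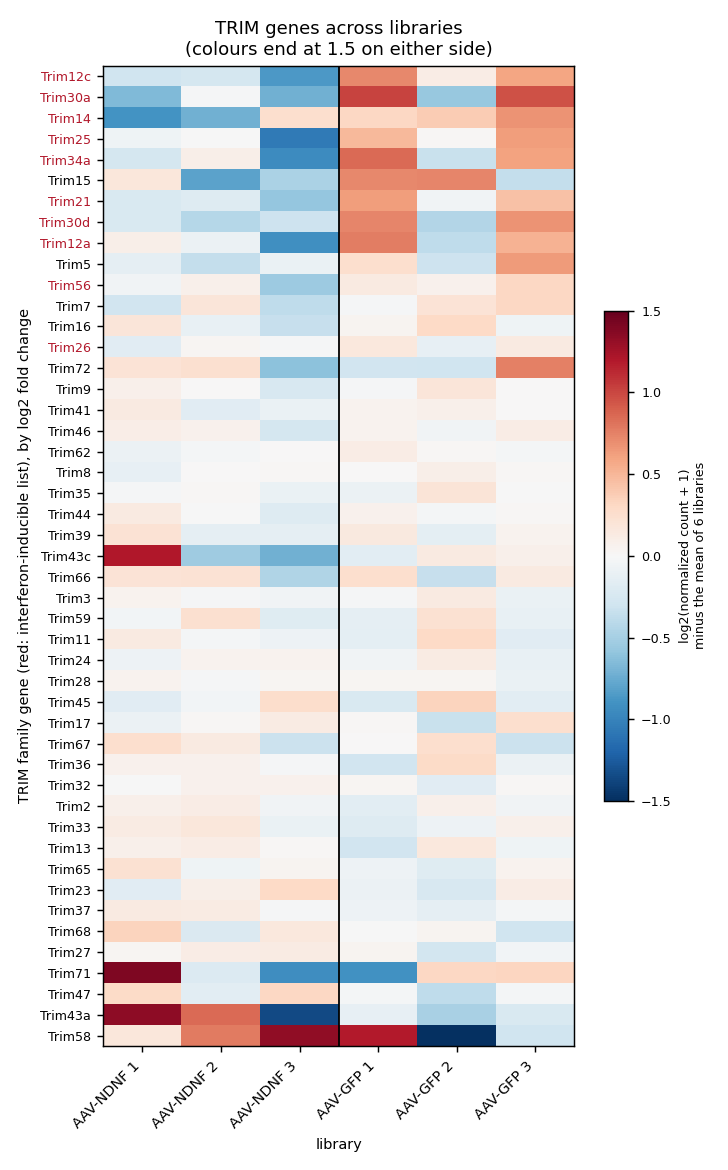
Log2(normalized count + 1) of each tested TRIM member in each library minus its mean over the 6 libraries, AAV-NDNF libraries left of AAV-GFP libraries; blue is lower and red higher, colours stop at 1.5 on either side, and rows run by log2 difference from Trim12c at the top to Trim58. AAV-GFP replicates 1 and 3 are red for Trim12c, Trim30a, Trim34a, Trim21, Trim30d and Trim12a, while AAV-GFP replicate 2 is blue for Trim30a, Trim34a, Trim30d and Trim12a.

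The members outside the list were ordered by their known roles. None of the 37 had an unadjusted p under 0.05 in either direction, and their log2 differences ran from -0.74 (Trim15) to 1.53 (Trim58, a value that rests on a control library at 0). The NHL-repeat members Trim2, a ligase of neurofilament light in mouse axons, Trim3, Trim32 and the embryonic RNA regulator Trim71 had a median log2 difference of 0.09 (-0.01 to 0.18). Trim2 averaged 6081 ± 375 normalized counts after AAV-NDNF and 5722 ± 483 after AAV-GFP (SD, n = 3 each). The TIF1 members Trim24, Trim28, Trim33 and Trim66 include Trim28, the corepressor that KRAB zinc finger proteins recruit to silence retroelements. Their median was 0.03 (-0.02 to 0.13), and Trim28 averaged 1415 ± 36.5 after AAV-NDNF and 1383 ± 71.7 after AAV-GFP (SD, n = 3 each).

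The COS-box members bind microtubules. Of 7 in the table, Trim9, Trim36, Trim46 and Trim67 were tested and had a median log2 difference of -0.01 (-0.11 to 0.06); Trim46, which bundles microtubules in the proximal axon, averaged 494 ± 65.4 after AAV-NDNF and 517 ± 29.7 after AAV-GFP (SD, n = 3 each). Trim54, Trim55 and Trim63, the muscle ring finger genes, were under the mean of 10. Of the muscle list, Trim72, a membrane repair gene, was tested, at a log2 difference of -0.11. The transmembrane members Trim13 and Trim59 stood at 0.13 and 0.01.

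Higher values after AAV-NDNF were small or rested on low counts. Trim37 had 6147, 6091 and 5502 normalized counts after AAV-NDNF, and 5274, 5086 and 5456 after AAV-GFP. It was the member with every AAV-NDNF library above every control, an arrangement that 4.26% of all genes had, and its log2 difference was 0.16 (SE 0.10; limma unadjusted p 0.14; exact permutation p 0.1, again the smallest possible). Trim58, an erythroid ligase, had 9.25, 14.6 and 21.9 after AAV-NDNF, and 19.6, 0 and 6.41 after AAV-GFP. That wide spread between controls gave a log2 difference of 1.53 with an SE of 0.98 (limma unadjusted p 0.15). It was 0.32 without AAV-GFP replicate 2, 2.50 without AAV-GFP replicate 1, 0.76 with edgeR and 0.80 with DESeq2. Blood markers summed to 5.05 to 32.7 after AAV-NDNF and 16.6 to 42.0 after AAV-GFP. Trim27 had 355, 375 and 377 after AAV-NDNF, and 356, 287 and 338 after AAV-GFP, with a log2 difference of 0.18 (SE 0.14; limma unadjusted p 0.23). Trim47 had 119, 87.8 and 122 after AAV-NDNF, and 96.4, 75.2 and 96.1 after AAV-GFP, with a log2 difference of 0.29 (SE 0.23; limma unadjusted p 0.24). Both had their lowest library among controls in replicate 2, and both pairs of groups overlapped. Trim23, which ends in an ADP-ribosylation factor domain, had 844, 1011 and 1167 after AAV-NDNF, and 893, 800.4 and 1028 after AAV-GFP (log2 difference 0.15, SE 0.15; limma unadjusted p 0.33). With each library left out in turn, the log2 differences ran from 0.09 to 0.24 for Trim27, 0.17 to 0.44 for Trim47 and 0.03 to 0.27 for Trim23. The lowest value came with AAV-GFP replicate 2 left out for Trim27 and Trim47, and with AAV-NDNF replicate 3 left out for Trim23.

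The pathway around the listed members was described from lists of related genes. Of 22 other interferon-stimulated genes tested, 22 had a log2 difference below 0 with a median of -1.21, and 15 were lower at an unadjusted p under 0.05, against 3.53% of all genes. AAV-GFP replicate 2 was the lowest control for 22 of these 22, against 39.8% of all genes, and nearer the AAV-NDNF mean for 19, against 49.7%. Of 15 genes of interferon signalling and nucleic acid sensing, 12 were below 0 with a median of -0.36, and those lower at an unadjusted p under 0.05 (3.53% of all genes) included Ddx58, Irf3, Irf7 and Irf9. Ddx58, which encodes RIG-I, the sensor that TRIM25 modifies, had 242, 280.4 and 189.5 normalized counts after AAV-NDNF, against 608, 290.2 and 691 after AAV-GFP. Its log2 difference was -1.08 (SE 0.28; limma unadjusted p 0.0030, adjusted p 0.53), with replicate 2 again apart from the other controls. Pml, a TRIM protein under another name that builds nuclear bodies, had 288, 194 and 183 after AAV-NDNF, against 407, 251 and 367 after AAV-GFP (log2 difference -0.62, SE 0.23; limma unadjusted p 0.018, adjusted p 0.92). Its groups overlapped, with replicate 2 as the lowest control. Mid1, Mid2 and Cmya5, also TRIM proteins by structure, had unadjusted p above 0.05.

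**Figure D5:**
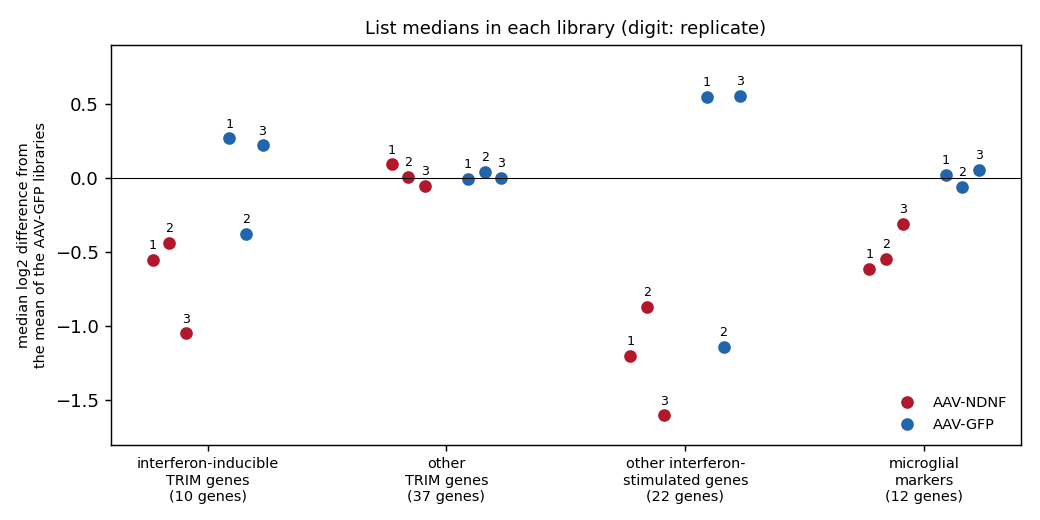
Median log2 difference from the AAV-GFP mean for lists of genes, by library, AAV-NDNF left of AAV-GFP. The interferon-inducible TRIM members stood at -0.56, -0.44 and -1.05 in the AAV-NDNF libraries and at 0.27, -0.38 and 0.22 in the AAV-GFP libraries; the other TRIM members stayed between -0.05 and 0.09 in every library.

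Per library, the median log2 difference of the listed members from their AAV-GFP mean was -0.56, -0.44 and -1.05 in the AAV-NDNF libraries, and 0.27, -0.38 and 0.22 in the AAV-GFP libraries. The other interferon-stimulated genes ran alongside, at -1.20, -0.87 and -1.60 after AAV-NDNF and 0.55, -1.14 and 0.56 after AAV-GFP. Microglia markers had another arrangement among controls, at -0.61, -0.55 and -0.31 after AAV-NDNF and 0.02, -0.06 and 0.05 after AAV-GFP. All 12 microglia markers were below 0, 9 of them at an unadjusted p under 0.05 (3.53% of all genes were lower by that measure), and none was at 0 counts. Their sums were 20168 to 25600 normalized counts after AAV-NDNF and 29012 to 33097 after AAV-GFP. The lowest of these control sums was that of replicate 2, which stood above all AAV-NDNF libraries for 12 of 12 markers. Its summed listed TRIM members (2065) lay within the AAV-NDNF range of 1666 to 2207 and below the other controls (3201 and 3153). T cell markers, 4 of 11 tested, summed to 92.3 to 104 after AAV-NDNF and 118 to 291 after AAV-GFP. Several were at 0 in some libraries. These included Cd8a in AAV-NDNF replicate 2, Cd3g and Cd8b1 in AAV-NDNF replicate 3, and Cd3d in AAV-NDNF replicate 3 and AAV-GFP replicate 3. Gzma was at 0 in AAV-NDNF replicates 2 and 3 and AAV-GFP replicate 1, and Gzmb in AAV-NDNF replicate 3 and AAV-GFP replicate 2. The part of microglia and T cell content in the TRIM differences was not tested.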

How the data were processed

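Polyadenylated RNA was sequenced from 6 libraries, 3 a group, grouped by the labels' titles and treatments. Per the submitters' processing notes, cutadapt, HISAT2, HTSeq, DESeq2 and mm10 were used; the sources used here state no versions, annotation or use of strand. Per the file headers and values, the per-sample columns are a normalized signal: read counts the authors divided by a size factor per library, so 100% of values were whole reads (tolerance 0.001). The authors also deposited log2 fold changes, Wald scores and p-values.

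Genes with at least 10 normalized counts in 3 libraries (17480) were tested with limma 3.58.1 (trend, robust variances; R 4.3.3) on log2(normalized count + 1), two-sided, Benjamini-Hochberg over all genes. The pseudocount of 1 makes differences of low genes smaller. edgeR 4.0.16, which called 0 genes, and DESeq2 1.42.0, which called 55, were run on the recovered reads as alternatives. Others were TMM and upper quartile scaling, pseudocounts 0.5 and 5, no filter, a filter of 50, a replicate block, and each library left out. The limma step was tested on simulated data.

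GENCODE M21 held 98.1% of symbols; transcripts were compared with BLAST 2.17.0. Same-numbered libraries did not deviate together (correlations -0.09, 0.05 and 0.08), and every pair of libraries differed by more than counting noise. Members, gene lists and tests were chosen with earlier results of these data known, so counts and medians of lists are descriptions. Values in every library are given for listed inducible members, members whose groups did not overlap, the 5 smallest p in each direction, the 3 highest per exon length and the genes around the mean of 10. Not every gene of the interferon lists is reported here by name.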

Additional observations from a re-analysis of the deposited data

How the results depend on the processing

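The listed members, Trim23, Trim27, Trim37, Trim47 and Trim58 were followed through those of the 15 alternatives in which they were tested. None of these changed sign. Some other members near 0 did: without AAV-GFP replicate 2, Trim3 went from -0.005 to 0.06 and Trim17 from 0.04 to -0.12. In addition, 2 medians near 0 changed sign with a library left out. The count of TRIM members lower at an unadjusted p under 0.05 was 7 as reported, 5 to 7 across other scalings, filters, pseudocounts and tests, and 1 to 8 with each library left out. The count of higher members was 0 as reported and 0 to 2 with each library left out (Trim37 and Trim43a without AAV-NDNF replicate 3, Trim58 without AAV-GFP replicate 1). Of all 17480 genes, 1.15% were higher as reported. Without AAV-NDNF replicate 3, 1150 genes had a limma unadjusted p under 0.05, of which 67.7% were lower and the rest higher. Without AAV-GFP replicate 1 there were 544 such genes, of which 70.2% were lower and the rest higher. The count of members past the adjusted threshold was 0, and 0 to 1 with each library left out. Over all genes that count was 0 as reported, 55 with DESeq2, 3 with no filter on low values and 0 to 43 with each library left out. With the replicate number as a block it was 6, of which 0 were TRIM members, and 6 members were lower at an unadjusted p under 0.05. In that fit 776 of 17480 genes had a limma unadjusted p under 0.05, and 77.3% of those were lower. The replicate numbers did not pair the libraries. The median log2 difference of the interferon-inducible members was -0.71, and -0.95 to -0.50 with each library left out; that of the other members was 0.02, and -0.02 to 0.06, and that of all tested members -0.03, and -0.07 to 0.02. The last 2 thus have no stable sign. The cause of these shifts was not tested. Members near 10 normalized counts, such as Trim58 and Trim71, are limited by depth.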
